A study of Mus musculus with 17 samples.

Results

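The 10 genes described here are the liver X receptor (LXR) genes Nr1h3 and Nr1h2 and 8 genes of cholesterol export and lipid remodelling that LXR is known to act on: Abca1, Abcg1, Apoe, Apoc2, Pltp, Mylip, Lpcat3 and Scd2. They were taken by symbol from a table of 38087 genes. Each of the 10 has a single row, so no choice between rows was needed. All 10 were at a log2 value of 5 or more in every group, so a filter on low values removed none of them.

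The cells were sorted from regenerating tibialis anterior of 3 months old DBA/2J males in the days after cardiotoxin, a venom toxin that kills muscle fibres and sets off regeneration. All groups share this strain, sex, age and injury, and no uninjured muscle, genotype or drug group was analysed here. The labels describe 2 samples of neutrophils of day 1, 3 each of macrophages with high surface Ly6C on days 1, 2 and 4, and 3 each of macrophages with low Ly6C on days 2 and 4. The sources used here do not say whether a sample is 1 mouse or a pool. The table gives 1 value per gene and group, the authors' mean on the log2 scale, so no value below has an error and no difference has a test, and none could be set against the spread between animals. The sources used here give no sort gate beyond the names of the groups.

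LXRα, encoded by Nr1h3, and LXRβ, encoded by Nr1h2, are nuclear receptors that bind oxysterols, oxidised forms of cholesterol, and act on DNA as partners of RXR. When a macrophage digests dead cells, the cholesterol it takes up is known to raise LXR activity, and LXR target genes then move cholesterol out of the cell and change the fatty acids of its membranes. In injured muscle, macrophages clear dead fibres and neutrophils, which is a heavy lipid load.

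The sort labels were compared with cell type markers. The macrophage markers Csf1r and Cd68 stood in neutrophils at 13.27 and 13.29, and in Ly6C high cells of day 1 at 13.52 and 13.44. The neutrophil receptor Cxcr2 was at 12.37 in neutrophils and at 3.27 to 5.46 in the macrophage columns, while Ly6g was at only 3.48 in neutrophils and listed at 0 in the others. Values of the neutrophil column therefore cannot be assigned to neutrophils alone. In 1 of the 2 neutrophil libraries 1375 genes stood at the value of 2 reads and 243 at that of 1 read, and whether its reads were counted in pairs was not tested. A single read was worth 0.412 to 1.03 normalised units, by the spacing of the lowest values. At the lowest value of any of the 10 genes, Apoc2 in neutrophils, that is about 177 reads in a library at the group's mean, with a counting error of 7.52%. Counting error is therefore small beside a 2-fold difference, although variation between animals is not measured.

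The largest differences lay in the target genes and not in the receptor genes. Nr1h3 was higher at each later day and Nr1h2 stayed within a narrow band, whereas Pltp, Abcg1, Apoe, Mylip and Scd2 were at least 2-fold higher on day 4 than on day 1 in Ly6C high cells. Abca1 was lowest on day 2, Lpcat3 kept within 0.60 over all groups, and Apoc2 was lowest among macrophages in Ly6C low cells of day 4. In bulk samples such as these, fewer cells of a type and less RNA per cell cannot be told apart.

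**Figure D1:**
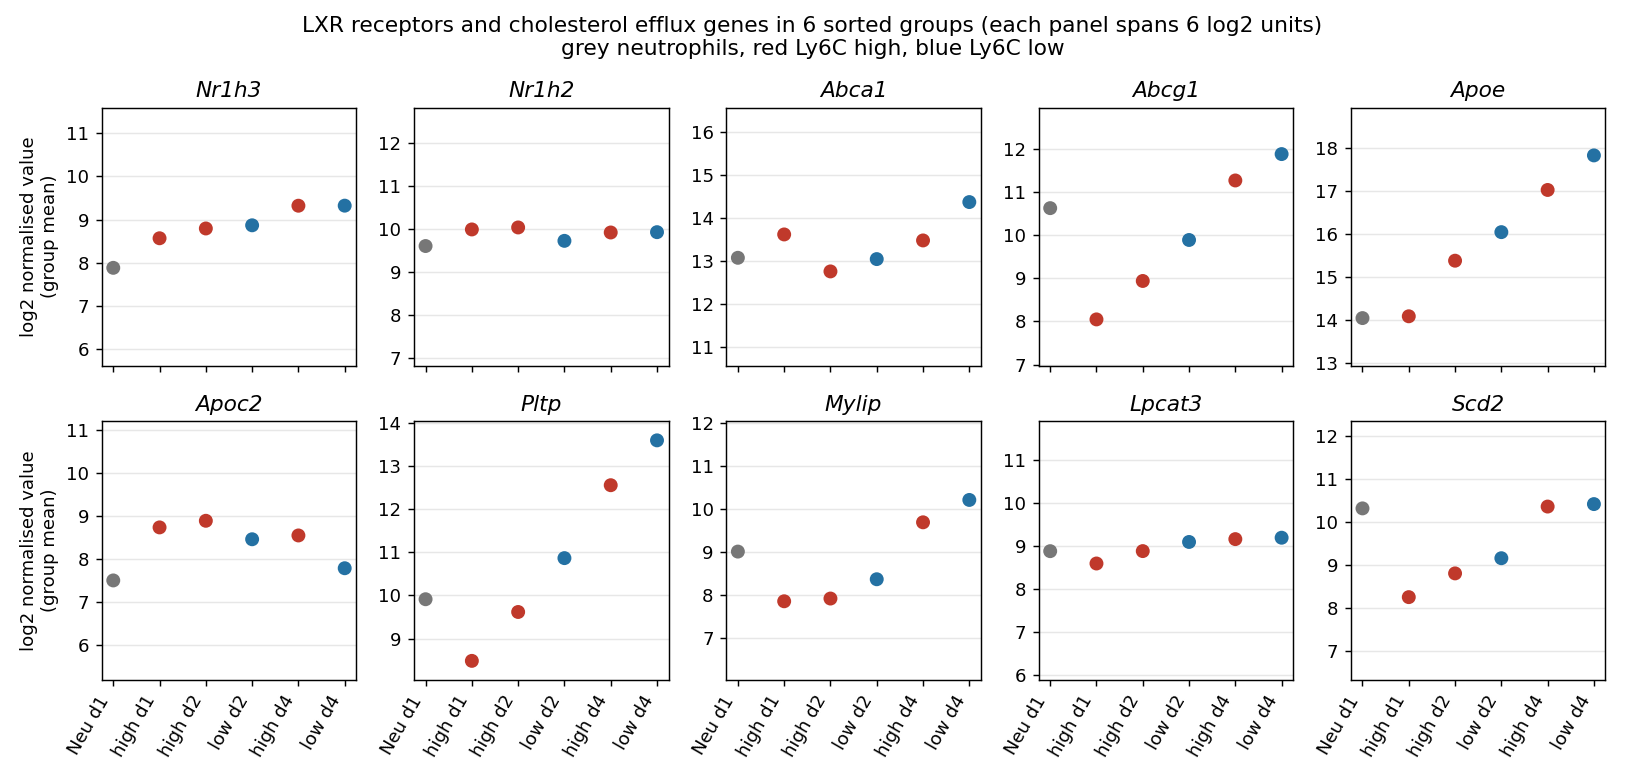
Log2 normalised value (vertical axis, the authors' group mean, every panel 6 log2 units tall) of the 10 genes in the 6 groups (horizontal axis; Neu is neutrophils, d is day), 1 point per group, without error bars since sample values were not used. Pltp runs from 8.48 to 13.60 and Apoe from 14.05 to 17.82, while Nr1h2 stays between 9.61 and 10.04.

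Regulatory sequence was looked up for the same genes, because Abca1 is a textbook direct LXR target and 5 of the genes shared a 2-fold higher value on day 4. RefSeq promoters on GRCm38.p6, which span 250 bases before to 50 after an annotated start, were found for 8 of the 10 genes, as 11 promoters, and not for Abcg1 or Scd2. The LXR element was searched on both strands as AGGTCA, any 4 bases and AGGTCA again, with at most 3 mismatches in the 12 fixed bases. It was present in 1 of the 11 promoters, that of Abca1. Of all 32851 promoters of this length, 21.9% held one. With at most 2 mismatches none of the 8 genes had it, against 3.02% of all promoters. A single exact AGGTCA, 1 of the 2 repeats of the element, was in 1 of the 11 promoters, that of Apoc2, against 16.3% of all promoters. The sterol response element TCACNCCAC, a site of the SREBP factors, was in none of the 8, against 1.24%. The GC box GGGCGG was in 4 of the 11 promoters, against 35.7% of all promoters, which is near the background. These 4 belong to Abca1, Lpcat3, Mylip and Pltp. The motif searches were independent, and an LXR element can contain a single repeat. The stretches below set the only LXR-like element beside the single repeat of Apoc2 and a GC box of Pltp and of Mylip. Among macrophages the values of Apoc2 were lowest where Apoe was highest. Pltp and Mylip were both at least 2-fold higher on day 4 than on day 2 in either sort. Lpcat3, which also holds a GC box, differed there by 0.28 in Ly6C high and 0.10 in Ly6C low cells. Abca1, with a GC box, differed by 0.72 and 1.32, and Apoe, without one, by 1.64 and 1.78. A link between motif and course was not tested. Each stretch is written 5′ to 3′ on the gene's own strand, with the motif in capitals.
Abca1, chr4:53159925-53159984, minus strand, element 51 to 67 bases before the start: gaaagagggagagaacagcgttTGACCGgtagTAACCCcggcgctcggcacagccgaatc
Apoc2, chr7:19678024-19678083, minus strand, single repeat: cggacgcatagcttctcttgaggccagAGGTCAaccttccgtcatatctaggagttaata
Pltp, chr2:164857713-164857772, minus strand, GC box on the opposite strand: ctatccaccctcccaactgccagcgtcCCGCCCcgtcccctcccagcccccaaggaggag
Mylip, chr13:45389671-45389730, plus strand, GC box: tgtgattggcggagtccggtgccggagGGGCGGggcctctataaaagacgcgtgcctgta
The Abca1 element lies on the strand opposite to the gene, and its capitals are therefore the reverse complement of the motif as searched, with 3 mismatches. These are matches of letters in a short window. LXR sites of other genes are known to lie in distant enhancers, which were not searched.

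The receptor genes differed less than most of their targets. Nr1h3 (ENSMUSG00000002108, chromosome 2, 91184061 to 91202834, minus strand, GRCm38) was at 7.88 in neutrophils, 8.56, 8.79 and 9.32 in Ly6C high cells (days 1, 2 and 4 in this order throughout), and 8.87 and 9.32 in Ly6C low cells (days 2 and 4). Its order therefore followed the day and not the sort, and on day 4 the Ly6C low and high columns differed by 0.00. Across the 5 macrophage groups its range was 0.76, a fold of 1.69, and it passed 2-fold in none of the comparisons. Nr1h2 (ENSMUSG00000060601, chromosome 7, 44549616 to 44553951, minus strand) was at 9.61 in neutrophils, 9.99, 10.04 and 9.92 in Ly6C high cells, and 9.73 and 9.93 in Ly6C low cells. Its range over all 6 groups was 0.43, the narrowest of the 10 genes. The neighbours in its order from 10.04 down to 9.92 were 0.01 to 0.06 apart, so that order carries no information without replicates.

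Levels of the 2 receptor genes can be compared only per length, here per kilobase of annotated exon in GENCODE M21 (2515 bases for Nr1h3 and 3354 for Nr1h2). On that scale the log2 level of Nr1h2 was 7.86 in neutrophils, 8.25, 8.29 and 8.17 in Ly6C high cells and 7.98 and 8.18 in Ly6C low cells. That of Nr1h3 was 6.55, then 7.23, 7.46 and 7.99, then 7.53 and 7.99. Nr1h2 stood at 2.48 times Nr1h3 in neutrophils, and in Ly6C high cells at 2.02 times on day 1 and 1.78 times on day 2. It was at 1.36 times in Ly6C low cells of day 2 and at 1.14 times in both groups of day 4. The receptor genes thus came close to even on day 4, by way of Nr1h3. Which gene leads there depends on the exon length used, since transcripts in use need not cover every annotated exon, but the change of the ratio between groups does not.

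**Figure D2:**
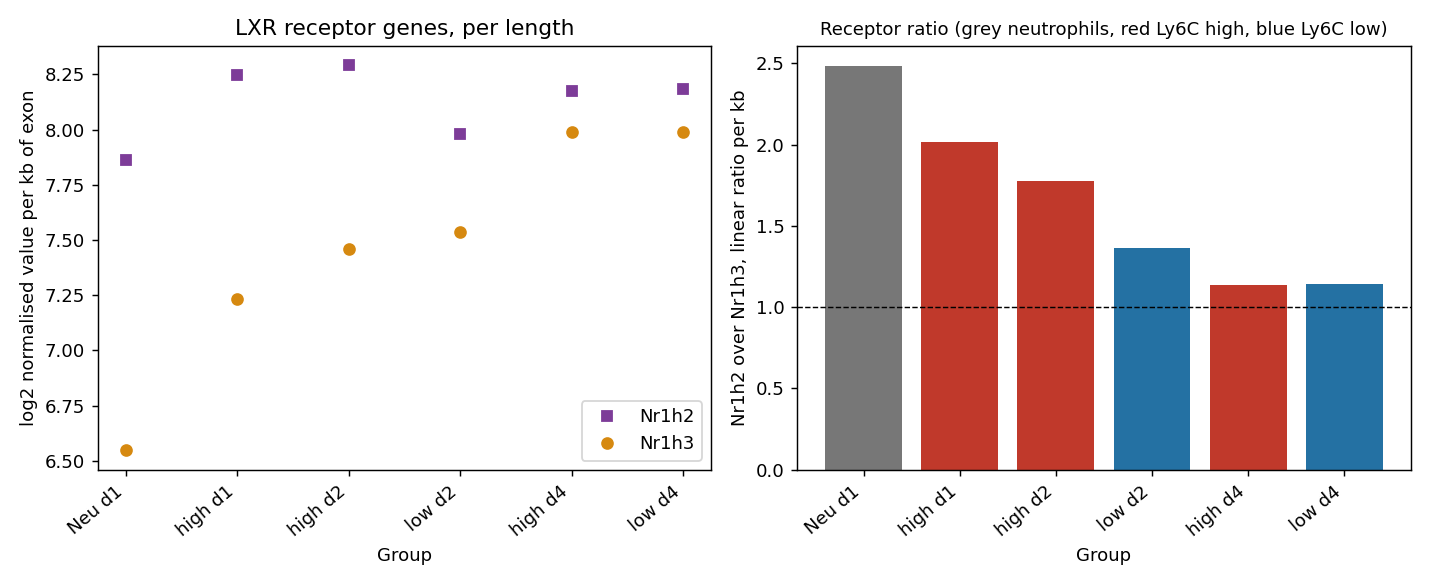
Left, log2 normalised value per kilobase of exon (vertical axis) of Nr1h2 (squares) and Nr1h3 (circles) in the 6 groups. Right, the linear ratio of Nr1h2 to Nr1h3 on the same scale (bars from 0, the dashed line at 1), which is 2.48 in neutrophils and 1.14 in both day 4 groups, without error bars since sample values were not used. Neutrophils are grey, Ly6C high cells red and Ly6C low cells blue.

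The exporters Abca1 and Abcg1 are membrane pumps that pass cholesterol to lipid-poor apolipoprotein and to formed HDL, respectively. Abca1 (ENSMUSG00000015243, chromosome 4, 53030787 to 53159895, minus strand) was at 13.07 in neutrophils, 13.61, 12.75 and 13.47 in Ly6C high cells, and 13.04 and 14.36 in Ly6C low cells. It was high from the start: in Ly6C high cells of day 1 it ranked 118 of all genes, and in Ly6C low cells of day 4 it ranked 34. Its day 2 values were the lowest, and in Ly6C high cells day 4 minus day 1 was -0.14, or 0.38 after quantile normalization.

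Abcg1 (ENSMUSG00000024030, chromosome 17, 31057675 to 31117988, plus strand) was at 10.63 in neutrophils, 8.05, 8.94 and 11.27 in Ly6C high cells, and 9.89 and 11.89 in Ly6C low cells. Among macrophages its value was higher on each later day and higher in Ly6C low cells within a day, with a fold of 14.3 between its lowest and highest column. In rank it moved from 6101 in Ly6C high cells of day 1 to 404 in Ly6C low cells of day 4. The exporters thus had different courses. Per kilobase of exon, Abca1 exceeded Abcg1 by 5.06 on the log2 scale in Ly6C high cells of day 1, by 3.31 on day 2 and by 1.69 on day 4, and by 2.64 and 1.97 in Ly6C low cells of days 2 and 4.

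The carriers of exported lipid are apolipoprotein E, encoded by Apoe, and the phospholipid transfer protein, encoded by Pltp, which moves phospholipid onto HDL. Apoe (ENSMUSG00000002985, chromosome 7, 19696109 to 19699188, minus strand) was at 14.05 in neutrophils, 14.09, 15.38 and 17.02 in Ly6C high cells, and 16.04 and 17.82 in Ly6C low cells. It ranked 69 and 66 in the neutrophil and Ly6C high columns of day 1, 13 and 6 in Ly6C high and low cells of day 2, and 2 and 1 on day 4. In Ly6C low cells of day 4 it had the highest value in the table's column, above Lyz2, encoding lysozyme, at 17.77 and the lysosomal protease gene Ctsb at 17.66. Its part of the sum of all linear values went from 0.150% on day 1 to 1.30% on day 4 in Ly6C high cells, and was 2.15% in Ly6C low cells of day 4.

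Pltp (ENSMUSG00000017754, chromosome 2, 164839518 to 164857711, minus strand) was at 9.91 in neutrophils, 8.48, 9.62 and 12.56 in Ly6C high cells, and 10.87 and 13.60 in Ly6C low cells. Its lowest and highest columns were 34.8-fold apart, the widest span of the 10 genes. Of its 2562 exonic bases, 495 (19.3%) are also exonic in Ctsa, a lysosomal gene on the other strand. The kit of these libraries does not mark strand, so reads in that stretch cannot be told apart. Ctsa was at 13.12 in neutrophils, 13.40, 13.70 and 13.89 in Ly6C high cells, and 14.09 and 14.45 in Ly6C low cells, a range of 1.33 against 5.12 for Pltp.

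Apoc2, the activator of lipoprotein lipase, sits with Apoe, Apoc1 and Apoc4 in a short stretch of chromosome 7 that macrophages are known to regulate through LXR. Apoc2 (ENSMUSG00000002992, 19671579 to 19677941, minus strand) was at 7.50 in neutrophils, 8.74, 8.89 and 8.55 in Ly6C high cells, and 8.46 and 7.79 in Ly6C low cells. Among macrophages it was lowest in the column where Apoe was highest. Apoc1 was at 4.16, 4.82 and 5.22 in Ly6C high cells and 3.02 and 4.92 in Ly6C low cells, and 1.28 in neutrophils. Apoc4 was listed at 0 in neutrophils and in Ly6C high cells of day 1, with 0.05 to 2.81 elsewhere. The genes of the cluster therefore differed from each other in level and in course. Of the 813 exonic bases of Apoc2, 646 (79.5%) are shared with Gm44805, a gene model on the same strand that reaches over Apoc4 as well and has no row in the table, so how reads there were assigned is not known.

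The last 3 genes act inside the cell. Mylip encodes the ubiquitin ligase IDOL, which marks proteins for degradation. It was at 9.01 in neutrophils, 7.86, 7.92 and 9.69 in Ly6C high cells, and 8.37 and 10.21 in Ly6C low cells (ENSMUSG00000038175, chromosome 13, 45389742 to 45412022, plus strand). Its days 1 and 2 in Ly6C high cells were 0.06 apart, so its higher values were of day 4.

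Scd2 encodes a stearoyl-CoA desaturase, which puts a double bond into saturated fatty acids. It was at 10.32 in neutrophils, 8.26, 8.81 and 10.36 in Ly6C high cells, and 9.17 and 10.42 in Ly6C low cells (ENSMUSG00000025203, chromosome 19, 44293674 to 44306864, plus strand). The day 4 columns and the neutrophil column lay within 0.10 of each other and cannot be ordered. Lpcat3 encodes an enzyme that loads polyunsaturated fatty acids into phospholipids. It was at 8.87 in neutrophils, 8.59, 8.88 and 9.15 in Ly6C high cells, and 9.09 and 9.19 in Ly6C low cells (ENSMUSG00000004270, chromosome 6, 124663027 to 124704418, plus strand). All of its columns lay within 0.60, and 334 of its 3268 exonic bases (10.2%) are shared with Emg1 on the other strand, which was at 8.40 to 9.30.

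The groups were then compared in pairs. A gene entered a comparison when any group compared had it at a log2 value of 5 or more. It was counted when the difference reached 1 on the log2 scale, which is 2-fold. The share of all genes counted in the same way is given as the background beside each count of the 10 genes and of the wider pathway lists. Comparisons that share a column, such as day 4 against day 2 and day 4 against day 1 of Ly6C high cells, are not independent.

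**Figure D3:**
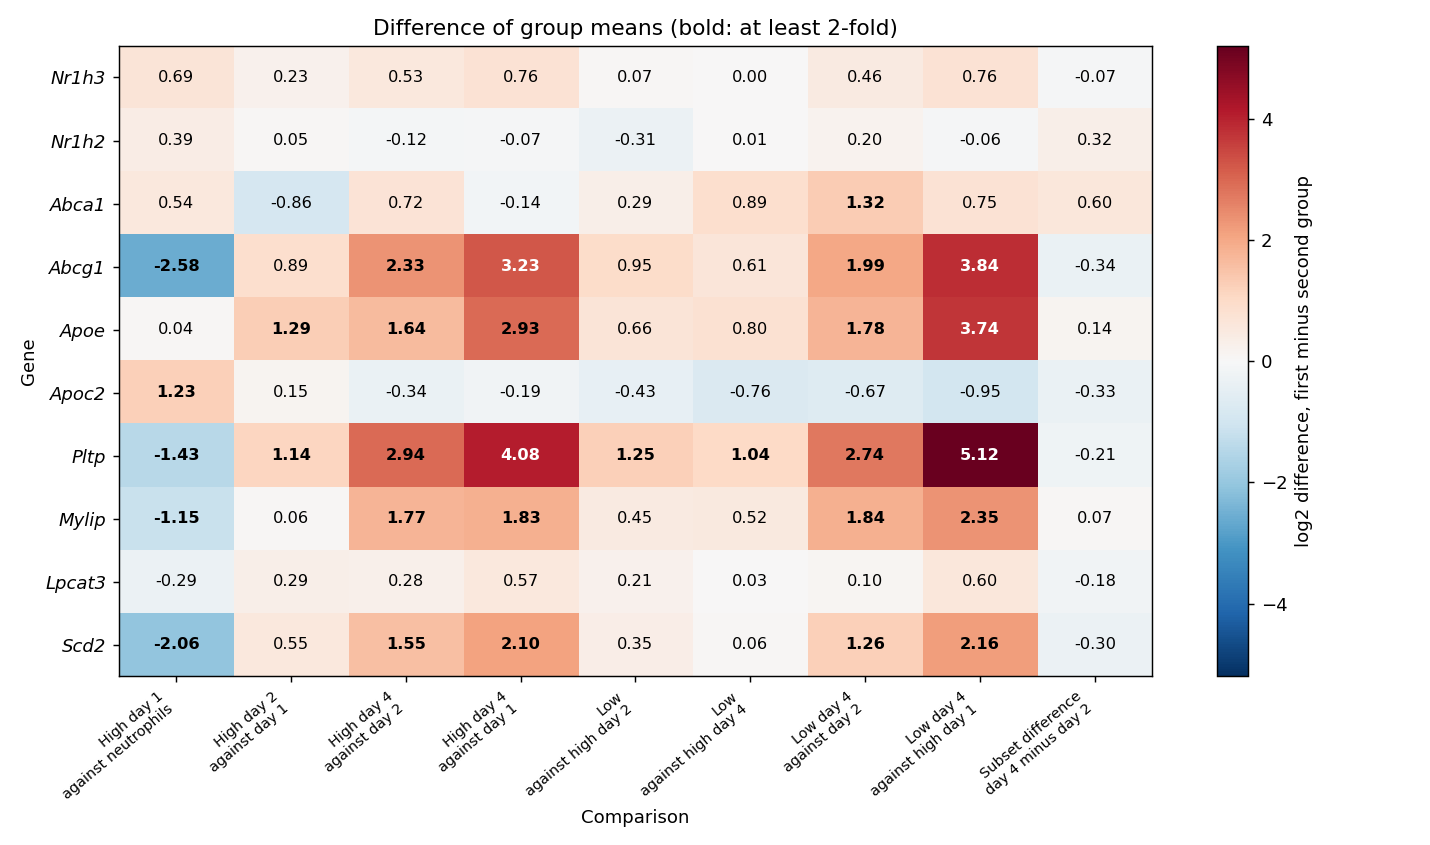
Log2 difference of the authors' group means (colour and printed value, first group minus second) for the 10 genes (rows) in 9 comparisons (columns), bold where the difference is at least 2-fold. The block of higher values spans Abcg1, Apoe, Pltp, Mylip and Scd2 in the 4 comparisons of day 4 with an earlier day, with Pltp at 5.12 the largest.

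On day 1, Ly6C high macrophages had lower values than the neutrophil column for 4 of the 10 genes, against a background of 16.1%, and higher values for 1, against 16.6%. The lower genes were Abcg1 at a difference of -2.58, Scd2 at -2.06, Pltp at -1.43 and Mylip at -1.15. Apoc2 was higher by 1.23, and Apoe differed by 0.04. The median over the 10 was -0.12, against 0.08 over all 11890 genes compared. The macrophage marker list, 9 of 10 of which are in the table, was at or above 5 in both columns for all 9, and its summed linear level was 92216 in neutrophils and 192496 in Ly6C high cells. Which cells of the neutrophil column carried Abcg1 or Scd2 was not tested.

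From day 1 to day 2 in Ly6C high cells, 2 of the 10 genes were at least 2-fold higher, Apoe by 1.29 and Pltp by 1.14, against a background of 1.41%. None was lower, against 1.1%. The exporters had differences of opposite sign, 0.89 for Abcg1 and -0.86 for Abca1, both short of 2-fold. The median was 0.26, against -0.01 over 11232 genes. Fibroblast markers were higher in the same column for 4 of the 6 compared, with a summed linear level of 1319 against 408 on day 1. Neutrophil markers were lower for 3 of the 6 compared, and none was higher. The part of these lists in the result was not tested.

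From day 2 to day 4 in Ly6C high cells, 5 of 10 genes were higher, against 14.3%, and none lower, against 2%. Pltp was higher by 2.94, Abcg1 by 2.33, Mylip by 1.77, Apoe by 1.64 and Scd2 by 1.55. Abca1 was 0.72 higher, short of 2-fold, and Nr1h3 0.53. The median was 1.14, against 0.01 over 12348 genes. Over the whole interval from day 1 the same 5 genes were higher, against 17.6%, and none lower, against 3.97%, with Pltp at 4.08, Abcg1 at 3.23, Apoe at 2.93, Scd2 at 2.10 and Mylip at 1.83. The median was 1.29, against 0.01.

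Markers of other cells also differed between these columns. All 10 fibroblast markers were higher in Ly6C high cells on day 4 than on day 2, with a summed linear level of 59072 against 1319, and so were all 10 endothelial markers, at 6035 against 1015. Of the dendritic cell markers 7 of 10 were higher, at 8203 against 3219. Of 5 neutrophil markers compared, 3 were lower and 1, Retnlg, was higher, and their part was not tested. Fibroblasts and endothelial cells are known to express several of the 10 genes, and their part in the Ly6C high values of day 4 was not tested. In bulk RNA a change in the number of such cells and a change in RNA per cell cannot be told apart.

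On day 4 the fibroblast and endothelial sums were lower in Ly6C low than in Ly6C high cells. The dendritic sum was 8781 in Ly6C low and 8203 in Ly6C high cells. Of the 10 dendritic markers, 5 were at least 2-fold lower in Ly6C low cells and 1, Itgax, was higher, at 12.68 against 11.66. The median difference of that list was -1.09. From day 2 to day 4 of Ly6C low cells, 6 of 10 genes were higher, against 9.23%, and none lower, against 2.16%. Pltp was higher by 2.74, Abcg1 by 1.99, Mylip by 1.84, Apoe by 1.78, Abca1 by 1.32 and Scd2 by 1.26. After quantile normalization, which sets a value by its rank alone, Apoe was higher by 1.09, at rank 1 against 6. Apoc2 was at -0.67, short of 2-fold. The median was 1.29, against 0.03 over 11824 genes. Of the 5 endothelial markers compared, none was 2-fold apart, and their list summed to 563 and 858. Fibroblast markers were still higher for 10 of 10, at 14890 against 234, and 5 of 6 muscle markers compared were higher, among them Myog at 5.98, listed at 0 on day 2. The dendritic sum was 8781 against 2978, with 1 of 6 markers higher, and 4 of 6 neutrophil markers were lower. The part of these lists was not tested.

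The widest contrast, Ly6C low cells of day 4 against Ly6C high cells of day 1, was added after the values were seen. There 5 of 10 genes were higher, against 17.3%, and none lower, against 8.89%. Pltp was higher by 5.12, Abcg1 by 3.84, Apoe by 3.74, Mylip by 2.35 and Scd2 by 2.16. Apoc2 was at -0.95, the most negative difference of the 10, short of 2-fold. Of all 12006 genes compared, 0.633% had a larger difference than Pltp, 1.93% than Abcg1 and 2.06% than Apoe. In the same comparison 10 of 10 fibroblast markers were higher, at a summed level of 14890 against 408, and 5 of 6 muscle markers were higher. Of the neutrophil markers, 5 of 6 were lower. Their part in the result was not tested.

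**Figure D4:**
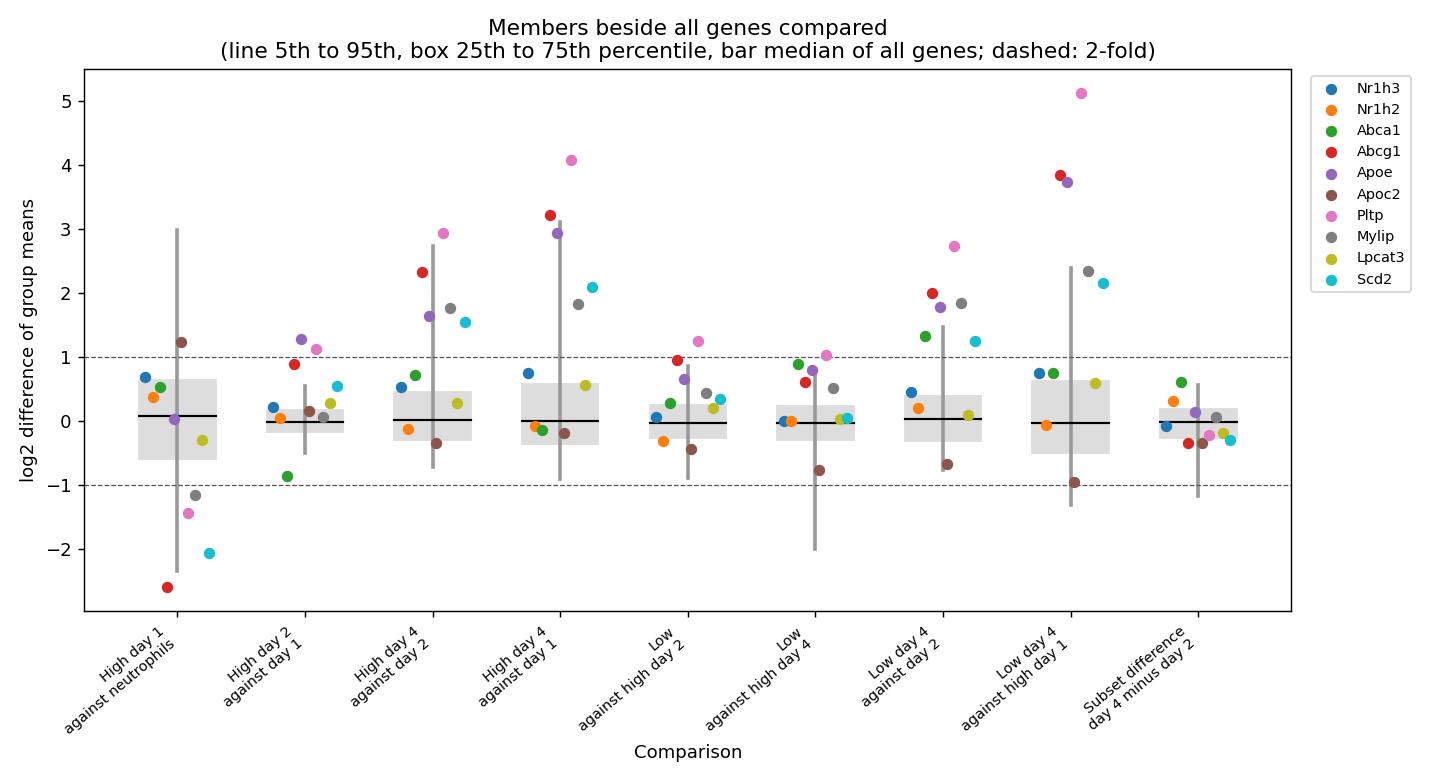
Log2 difference of group means (vertical axis) of the 10 genes (coloured points) in 9 comparisons, beside all genes compared (grey line from the 5th to the 95th percentile, box the interquartile range, black bar the median; dashed lines at 2-fold). In Ly6C low cells of day 4 against day 2, Pltp at 2.74, Abcg1 at 1.99, Mylip at 1.84 and Apoe at 1.78 lie above the 95th percentile of all genes, 1.47.

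Ly6C low and high cells were then compared within a day. On day 2 only Pltp was at least 2-fold higher in Ly6C low than in Ly6C high cells, by 1.25, against a background of 3.71%, and none of the 10 was lower, against 4.03%. Abcg1 was 0.95 higher and Apoe 0.66. On day 4 again only Pltp passed, by 1.04, against 2.44%, and none was lower, against 8.93%. Abca1 was 0.89 higher, Apoe 0.80 and Abcg1 0.61, and Apoc2 was at -0.76. For Apoe the difference was 0.78 after median-ratio rescaling and 0.10 after quantile normalization. The latter sets a value by its rank alone, and Apoe ranked 2 in Ly6C high and 1 in Ly6C low cells. The 0.10 is therefore the gap between the highest common values and does not measure Apoe. The medians were 0.32 and 0.29, against -0.03 over all genes on either day.

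Between the sorts on day 4, most markers of other cells had their lower level in Ly6C low cells. All 10 fibroblast markers were lower in Ly6C low cells, at a summed level of 14890 against 59072, and 9 of 10 endothelial markers were lower, at 858 against 6035. Pltp, Abca1, Apoe and Abcg1 had their higher value in Ly6C low cells, and Apoc2 its lower value. From day 2 to day 4 of Ly6C low cells the fibroblast sum was higher along with Pltp, Abca1, Apoe and Abcg1, at 14890 against 234. Muscle markers did go with them, higher for 4 of 6, at 555 against 244, and their part was not tested.

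The difference between sorts on day 4 minus that on day 2 was at least 2-fold for none of the 10 genes, against a background of 0.967% above and 6.09% below. Abca1 had the largest, 0.60, from a difference of 0.29 on day 2 and 0.89 on day 4. No test of this count was possible, and 1 of the 10 genes, Abca1, passed at 1.5-fold.

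**Figure D5:**
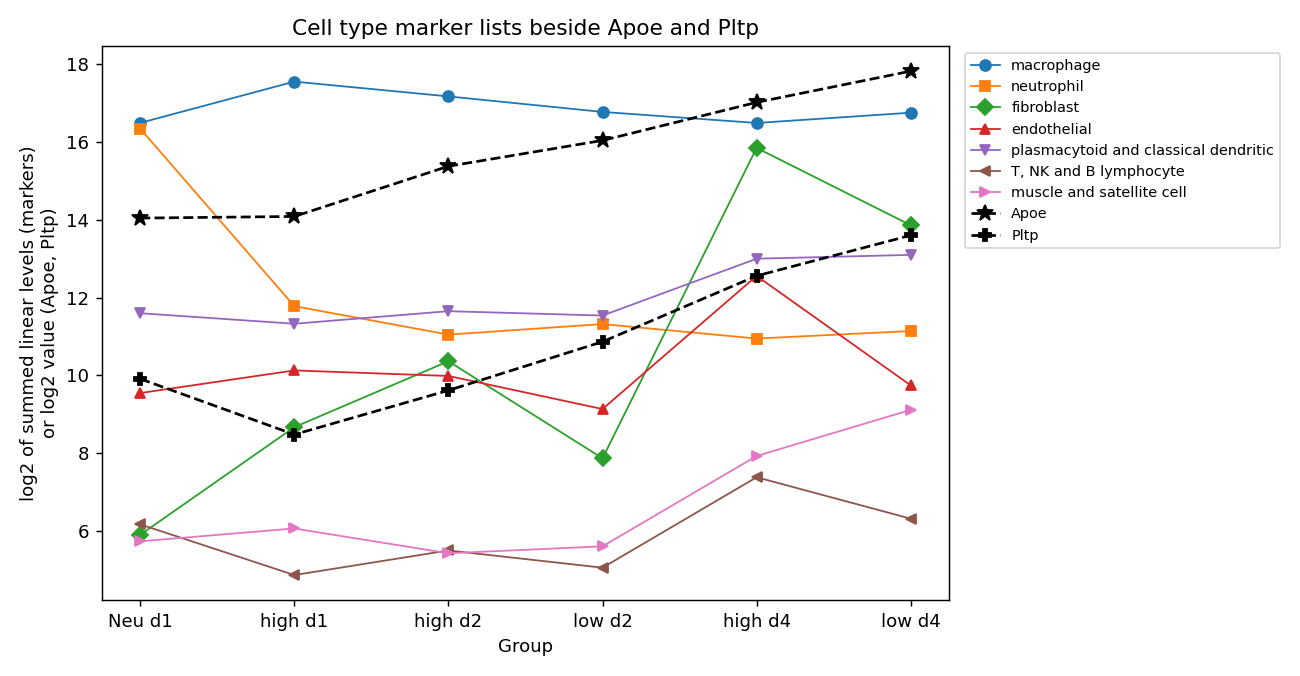
Log2 of the summed linear levels of 7 marker lists (coloured symbols) and the log2 values of Apoe (stars) and Pltp (plus signs) in the 6 groups; lines only join points of 1 list or gene. Fibroblast and endothelial sums peak in Ly6C high cells of day 4, where Apoe is 17.02 and Pltp 12.56. Both genes are highest in Ly6C low cells of day 4, where the fibroblast sum is also above that of day 2. The part of the lists was not tested.

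Other LXR targets were counted in the same way. Of 23 further known or proposed targets, 17 entered the comparison of Ly6C high cells of day 4 with day 2, and 4 were higher, against 14.3% of all genes, and none lower, against 2%. These were Apod at 9.12 against 3.33, the desaturase genes Scd1 at 7.77 against 3.97 and Fads2 at 5.69 against 4.20, and the lipase gene Lpl at 13.08 against 11.08. On day 4, 17 of these targets were compared between the sorts. Of the 17, 3 were at least 2-fold lower in Ly6C low cells, Apod, Scd1 and Fads2, against 8.93% of all genes. Another 2, Cd5l and Mertk, were at least 2-fold higher, against 2.44%. All 10 fibroblast markers were lower in Ly6C low cells there, and their part was not tested. In Ly6C low cells from day 2 to day 4, 5 of 15 were higher, against 9.23%, and none lower, against 2.16%. Apod was higher by 2.46, Scd1 by 1.97, and the apoptotic cell receptor gene Mertk by 1.45, and Lpl was at 13.96 against 12.74. All 10 fibroblast markers were higher in the same comparison, and their part was not tested. Srebf1, the LXR target that drives fatty acid synthesis, was at 9.56 to 9.97 in all 6 groups, and its own target Fasn at 8.34 to 9.28. Abcg5 and Abcg8, sterol exporters of gut and liver, were at 0.28 or below throughout.

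The partners and coregulators of LXR were close to level among macrophages. Of 15 compared, none was 2-fold apart in any comparison of macrophage groups except Rxra, which encodes the partner RXRα. It was higher by 1.29 in Ly6C low cells of day 4 than in Ly6C high cells of day 1, against 17.3% of all genes. Over the macrophage comparisons the background ran from 0.967 to 17.6% for higher and from 1.1 to 8.93% for lower genes. Where that share is smallest, a count of none of 15 is near it. The corepressor gene Ncor1 was at 10.35 to 10.72 in the macrophage groups and 11.73 in neutrophils.

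The enzymes that make LXR ligands differed more. Cyp27a1, which makes 27-hydroxycholesterol, was at 6.24 in neutrophils, 6.71, 7.57 and 9.41 in Ly6C high cells, and 7.32 and 9.91 in Ly6C low cells. Ch25h, which makes 25-hydroxycholesterol, was at 6.17 in neutrophils, 3.91, 4.39 and 5.23 in Ly6C high cells, and 5.91 and 5.46 in Ly6C low cells. Its level was low, yet on day 2 it was 1.52 higher in Ly6C low than in Ly6C high cells. For Ly6C low cells of day 4 against Ly6C high cells of day 1, 5 genes of oxysterol supply and removal were compared. Of these 2 were higher, Cyp27a1 and Ch25h, against 17.3% of all genes, and 2 were lower, against 8.89%. Of 16 genes of cholesterol uptake, storage and transport, 3 were higher, against 17.3% of all genes, and 3 lower, against 8.89%, in Ly6C low cells of day 4 than in Ly6C high cells of day 1. The share that was higher is near the background. The lysosomal acid lipase gene Lipa was at 13.26 against 10.75 and the HDL receptor gene Scarb1 was higher by 1.31. The scavenger receptor gene Msr1 was at 11.77 against 13.94, and Soat1, which stores cholesterol as ester, at 11.93 against 11.51.

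Genes with the most similar course were found by the root mean square difference of mean-centred log2 values over the 6 columns, among 11049 named genes. With 6 group means this is a description only, and many genes lie close. Nearest to Nr1h3 were Itm2c at 0.08, Rnaset2b at 0.08 and Tmed3 at 0.09. Nearest to Abca1 were Bzrap1 at 0.18, Tbc1d12 at 0.22 and Dcstamp at 0.23. Nearest to Abcg1 were Tle6 at 0.18, Cxcr3 at 0.19 and Kctd12b at 0.19. Of these, Tle6 had low values of 2.00 to 5.49 and Cxcr3 of 1.55 to 5.23. Nearest to Apoe were the lysosomal genes Arsb at 0.25 and Ctsk at 0.25, and Batf3 at 0.26. Batf3 had low values too, of 1.26 to 5.17. The closest of the 10 genes to Apoe was Pltp, at 0.65, and to Abcg1 it was Mylip, at 0.53, a wider distance than to the 3 genes named for each.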

How the data were processed

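Gene expression was measured by RNA sequencing of poly-A RNA with a TruSeq kit. The submitters' processing notes name mm10, TopHat2 2.0.7 and Cufflinks 2.0.2, without roles. The annotation and the normalization were not given in the sources used here. In the deposited table, values are log2 normalised values, 1 per gene and group. Each column was read as the mean over a group's samples of log2 values, with values under 1 set to 1, from the spacing of the lowest values (17 series of whole reads, tolerance 1e-05, tested on simulated data). No sample values were used, so no test, error or depth per sample is given.

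Differences of columns were computed with no pseudocount (Python 3.11.15, pandas 2.3.3, numpy 2.4.6, matplotlib 3.10.9). A gene was compared if any group of the comparison had a log2 value of 5 or more, and counted at 2-fold. Marker levels were summed after undoing the logarithm. Coordinates and exon lengths are from GENCODE M21 on GRCm38, the assembly of mm10, which held 36308 (95.3%) of the table's identifiers. Promoter sequences are from RefSeq, GRCm38.p6. The 10 members and all lists were chosen with earlier results of these data known. All 10 members are named; other genes are named if 2-fold apart (at most 5 per list, largest first), defining markers always, and the 3 genes most like each of Nr1h3, Abca1, Abcg1 and Apoe. Srebf1, Fasn, Abcg5, Abcg8, Ncor1, Soat1, Ctsa, Emg1, Apoc1, Apoc4, Lyz2, Ctsb and Myog were named outside that rule after their values were seen. Alternatives were 2 rescalings, a pseudocount, 3 filters and a smaller fold. Some genes of the wider lists are not reported here.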

Additional observations from a re-analysis of the deposited data

How the results depend on the processing

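The count of the 10 genes at least 2-fold apart was recomputed in 9 comparisons under 7 alternatives, and 57 of 63 counts stayed within 1.5 times their value. After quantile normalization the count in Ly6C low against high cells of day 2 was 2 in place of 1, with Abcg1 at 1.04 added to Pltp. With 1.5-fold in place of 2-fold the count became 4 in place of 2 between days 1 and 2 of Ly6C high cells, and 3 on day 2 and 5 on day 4 in place of 1 between the sorts. It became 9 in place of 5 for Ly6C low cells of day 4 against Ly6C high cells of day 1, and 1 in place of 0 for the difference between sorts on day 4 minus that on day 2. These higher counts follow from the lower bar. At 1.5-fold the share of all genes counted, higher or lower, was 7.93% between days 1 and 2 of Ly6C high cells. Between the sorts it was 19.2% on day 2 and 21.2% on day 4. It was 46.9% for Ly6C low cells of day 4 against Ly6C high cells of day 1. For the difference between sorts on day 4 minus that on day 2 it was 15.97%, and the count of 1 of 10 was not above it. The number of genes with an LXR element was 0 in place of 1 with at most 2 mismatches, an alternative chosen after seeing the data. Of 270 single differences, recomputed under both rescalings and the pseudocount of 5, none that was 2-fold changed sign and 268 stayed on the same side of 2-fold. Quantile normalization moved Apoe most, from 0.80 to 0.10 between the sorts on day 4, from 1.78 to 1.09 between days 4 and 2 of Ly6C low cells, and from 0.14 to -0.64 in the difference between sorts on day 4 minus day 2. Apoe ranked 2 and 1 in the day 4 columns, where this method can return only the highest common values, so these moves follow from its ranks. Quantile normalization moved Abca1 from -0.14 to 0.38 between days 4 and 1 of Ly6C high cells and from 0.75 to 1.10 between Ly6C low cells of day 4 and Ly6C high cells of day 1. Among all genes 2-fold apart, the higher ones went under quantile normalization from 87.7 to 62.0% (Ly6C high cells, day 4 against day 2), 81.6 to 56.9% (day 4 against day 1) and 81.1 to 66.7% (Ly6C low cells, day 4 against day 2). They went from 21.4 to 38.2% (Ly6C low against high, day 4), from 66.1 to 55.9% (Ly6C low cells of day 4 against Ly6C high cells of day 1) and from 13.7 to 30.4% (the difference between sorts on day 4 minus day 2). Quantile normalization put the median of all genes at -0.13 and -0.14 in the first 2 of these comparisons. In Ly6C high cells of day 1 against neutrophils the median was 0.08, against -0.08 after median-ratio rescaling and -0.03 after quantile normalization. In each comparison the number of all genes counted was over 1.5 times larger with no filter or at 1.5-fold, and over 1.5 times smaller at a log2 value of at least 7. Between days 1 and 2 of Ly6C high cells, for example, the higher genes numbered 158, against 633, 495 and 64 in turn. A value of at least 5 in 2 groups made it over 1.5 times smaller for the sorts on day 4, with 682 in place of 1111 lower genes, and for the difference between days, with 423 in place of 769 lower genes. It raised the higher genes between days 1 and 2 of Ly6C high cells from 158 to 304. No paired analysis was possible because the columns carry no replicates, and for the same reason no replicate could be left out.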
